A study of Caenorhabditis elegans with 33 samples.

Results

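Unirradiated *Caenorhabditis elegans* of the F1 generation were compared with unirradiated animals of the F0 generation. The members were chosen by their labels alone, as the 3 libraries of the generation 1 control and the 3 of the generation 2 control, 6 of the 33 libraries of the series. All animals were of the wild-type N2 strain, grown on plates with OP50 bacteria at 19 °C from bleach-synchronised embryos and collected whole after 65 h. No library of this comparison was irradiated. In the rest of the series, exposed animals received gamma radiation at 50 mGy per h for the same 65 h in each generation, and recovery animals descended from an exposed F0 but were themselves not irradiated. The labels name the animals young adults in the tissue field and L4 larvae in the stage field. Each control group is a separate harvest of a separate generation, and no label gives a batch, so generation, harvest and library batch cannot be told apart.

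Nematodes shed the cuticle at the end of each larval stage. In every moulting cycle the hypodermis switches on, in successive waves, genes for cuticle collagens, hedgehog-related secreted proteins and the proteases that release the old cuticle. Around the last moult the hermaphrodite germ line stops making sperm and starts making oocytes, and the intestine begins to secrete vitellogenins, the yolk proteins that oocytes take up. Transcripts of a synchronised culture therefore depend on the hour within the cycle at which the animals are collected.

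RNA was measured as gene counts, which were scaled to library size with TMM factors and are given as CPM. Total counts were 37.92, 43.43 and 36.52 M in the F0 control libraries and 40.61, 28.13 and 35.15 M in the F1 control libraries. Genes for ribosomal RNA took 3.195% to 4.916% of the counts in F0 control and 6.864% to 12.702% in F1 control, with no overlap, and 12.702% was F1 control replicate 2. This share moved with the groups compared, and its part in the results was not tested, but counts that moved by a large factor with it as a covariate are given beside the result. Transcripts of sperm, oocytes and yolk were all present: major sperm protein genes summed to 3104 to 3911 CPM in F0 control and 3737 to 4368 CPM in F1 control, and vitellogenin genes to 27794 to 35548 and 20349 to 23069 CPM. The labels call the libraries biological replicates without saying whether they came from separate cultures, so p-values measure the spread between libraries.

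The question was how far unirradiated animals differed between harvests. Of 17627 genes tested, 3494 (19.8%) differed, 1871 higher in F1 control (10.6%) and 1623 lower (9.21%), by edgeR's quasi-likelihood test with a Benjamini-Hochberg adjusted p under 0.05, which is what "rose" and "fell" mean here. Rises were large and falls were small. The median log2 fold change was 0.93 among the genes called higher and −0.34 among those called lower, against −0.02 over all genes tested. More than 2-fold changes numbered 866 upward and 129 downward, and more than 4-fold changes 427 and 20. Collagens made up 65 of the 427. In 3619 genes (20.5%) the 3 F1 libraries all lay above the 3 of F0, and in 4106 (23.3%) all below. With upper quartile scaling, which moved the median of all genes to 0.06, the split became 2278 higher and 647 lower. With the ribosomal RNA share as a covariate it was 952 and 567, and without F1 control replicate 2 it was 1407 and 682.

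**Figure D1:**
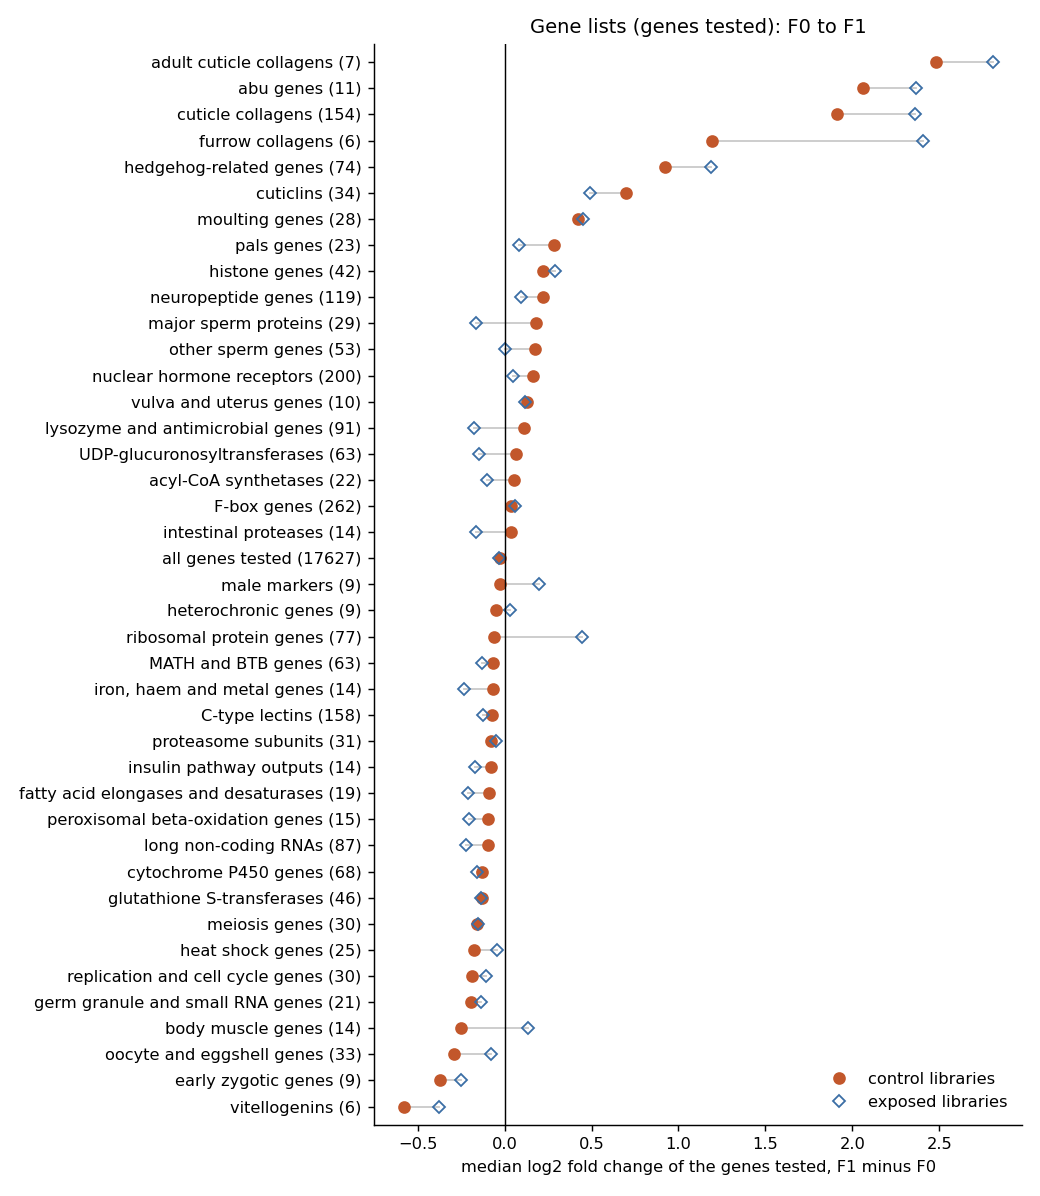
Median log2 fold change from F0 to F1 (x axis) of the genes tested in each gene list (y axis, number tested in brackets), for control libraries (filled circles) and exposed libraries (open diamonds). Cuticle, hedgehog-related and moulting lists lie to the right of all genes tested, whose median is −0.02, and vitellogenins lie at the bottom with −0.58.

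Genes of the cuticle made up the largest block of rises. Of 176 cuticle collagen genes, which encode the structural proteins of the cuticle, 154 passed the filter on low counts. Of these 92 rose (59.7%, beside 10.6% of all genes) and 11 fell (7.14%, beside 9.21%), with a median log2 fold change of 1.91. The 3 F1 libraries all lay above those of F0 for 97 of the 154 and all below for 23, beside 20.5% and 23.3% of all genes. The gene *col-10* (chromosome V, 9164292 to 9165307, minus strand, in the WBcel235 annotation) was at 15.7, 11.8 and 11.8 CPM in F0 control and at 61.8, 67.6 and 60.0 CPM in F1 control. All F1 libraries stood far above the F0 libraries, a 4.83-fold rise (log2 fold change 2.27, SE 0.18, adjusted p = 5.12e-09). Its neighbour *col-144* (chromosome V, 9159586 to 9160642) was at 17.5, 16.8 and 14.7 CPM in F0 control and 67.0, 73.2 and 65.7 CPM in F1 control, 4.20-fold higher (adjusted p = 2.37e-08). In both genes the libraries lay close together within each group.

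The collagens *lon-3* and *rol-6* rose by more than the list's median. The gene *lon-3*, whose product limits body length, was at 1.08, 1.21 and 1.75 CPM in F0 control and at 20.0, 21.7 and 14.9 CPM in F1 control. The groups were far apart, with a log2 fold change of 3.81 (SE 0.37, adjusted p = 1.19e-07). The gene *rol-6*, known for the rolling movement of its mutants, was at 2.02, 1.75 and 2.05 CPM in F0 control and 23.4, 24.6 and 16.8 CPM in F1 control (log2 fold change 3.47, SE 0.38, adjusted p = 4.7e-07). In both genes F1 control replicate 3 was the lowest of its group and still above every F0 library. The collagen genes *col-54* and *col-41* had the largest fitted changes among the collagens called, 4.62 and 4.77 on the log2 scale, from at most 0.162 and 0.0808 CPM in F0 control to between 2.15 and 2.86 and between 0.699 and 1.92 CPM in F1 control. These folds rest on few F0 counts and depend on the prior count of the fit. Collagens are a large family of similar genes that may share reads, so the level of a single member is uncertain.

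**Figure D2:**
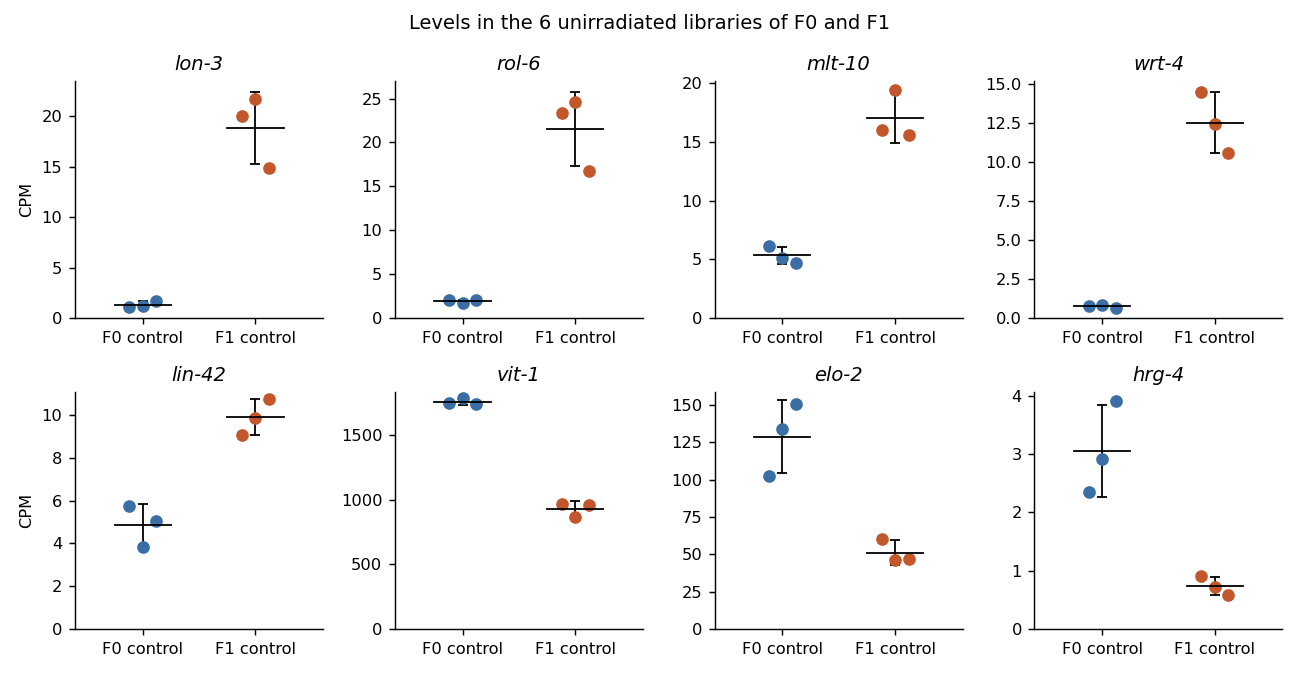
CPM (y axis, from 0) of 8 genes in each of the 3 F0 control and 3 F1 control libraries (points), with the mean and SD (lines and bars). In *lon-3*, *rol-6*, *mlt-10*, *wrt-4* and *lin-42* the F1 libraries all lie above those of F0, and in *vit-1*, *elo-2* and *hrg-4* all below.

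Collagens assigned to the adult cuticle rose together. Of 7 such genes 6 rose (85.7%, beside 10.6% of all genes), with a median log2 fold change of 2.48, and 6 were called higher under each alternative run. The strut collagen gene *bli-1* was at 2.21, 2.50 and 1.96 CPM in F0 control and at 15.3, 20.7 and 12.5 CPM in F1 control. That was a 7.20-fold rise (log2 fold change 2.85, SE 0.37, adjusted p = 4.22e-06), and *bli-2*, of the same struts, rose 9.18-fold from between 2.34 and 3.93 CPM (adjusted p = 4.55e-07). The seventh gene, *col-19*, is an adult-specific collagen widely used as a reporter of the larval to adult switch. It was at 1122, 1117 and 1143 CPM in F0 control and at 692, 966 and 843 CPM in F1 control. All F1 libraries were the lower ones, but the difference did not pass the test (log2 fold change −0.44, SE 0.21, adjusted p = 0.133). A fit of the 6 control libraries alone did call it, as lower.

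Furrow collagens form the annular furrows of the cuticle. Of 6 genes 3 rose (50%, beside 10.6% of all genes), *dpy-8* (6.50-fold), *dpy-9* (3.96-fold) and *dpy-7* (2.47-fold). For *dpy-7* the values were 3.40, 1.45 and 1.31 CPM in F0 control and 4.13, 7.24 and 3.94 CPM in F1 control. The groups nearly touched, its adjusted p was 0.0489, and it lost the call when any library other than F0 control replicate 1 was left out. The collagen gene *sqt-3*, needed for body shape, rose 3.87-fold from 15.6, 7.33 and 7.15 CPM to 38.5, 44.2 and 33.7 CPM (log2 fold change 1.95, SE 0.35, adjusted p = 0.00033). In both genes F0 control replicate 1 was well above the other F0 libraries.

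The most abundant collagens moved the other way. A division at a mean of 100 CPM over the 33 libraries, chosen after the values were seen and given with no test, left 28 collagens at or above that level and the others below it. Below it 87 rose and 2 fell, with a median log2 fold change of 2.28. At or above it 5 rose and 9 fell, with a median of −0.43, and all 3 F1 libraries lay below those of F0 for 20 of the 28. Among all 2248 genes at or above that level 50 rose and 491 fell, with a median of −0.14. For 1141 of the 2248 all 3 F1 libraries lay below those of F0. Summed over the 28 abundant collagens, levels were 20271, 19896 and 20627 CPM in F0 control and 13042, 16260 and 15439 CPM in F1 control. Summed over the collagens below that level they were 1081, 946 and 949 CPM in F0 control and 3273, 3537 and 3262 CPM in F1 control. So the family rose in most of its genes while its total fell. The gene *col-101* was at 736, 701 and 675 CPM in F0 control and 311, 377 and 421 CPM in F1 control (log2 fold change −0.93, SE 0.14, adjusted p = 1.44e-05). *col-8*, at 821 to 918 CPM in F0 control and 573 to 614 CPM in F1 control, fell 1.48-fold (adjusted p = 0.000475), again with no overlap. With the ribosomal RNA share as a covariate 85 collagens still rose, but 3 rather than 11 fell. Without F0 control replicate 1, F1 control replicate 1 or F1 control replicate 2, 7, 6 and 7 fell. With the 6 control libraries alone in the fit 23 fell.

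**Figure D3:**
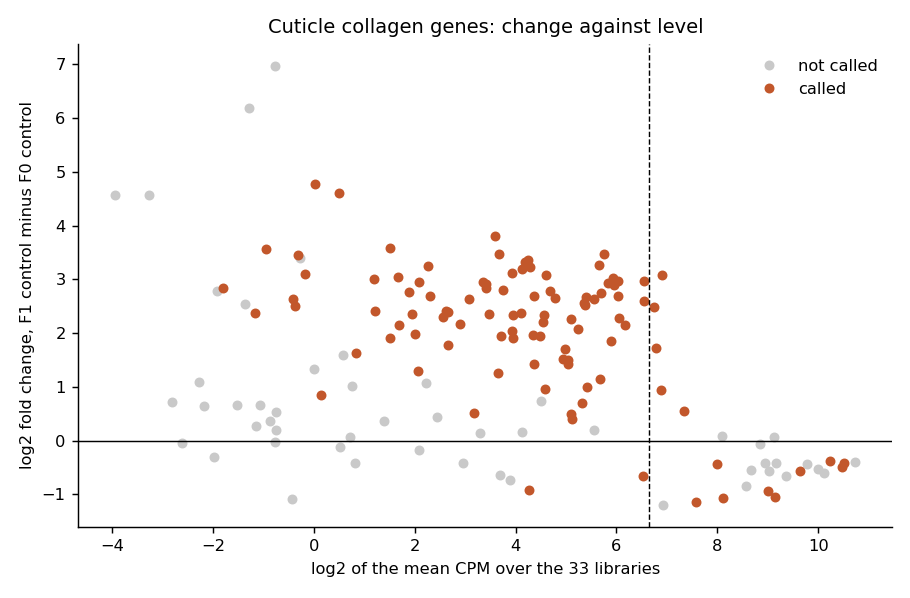
Log2 fold change of each of the 154 cuticle collagen genes tested, F1 control minus F0 control (y axis), against the log2 of its mean CPM over the 33 libraries (x axis). Orange points were called by edgeR, grey points were not, and the dashed line marks 100 CPM: most called genes to its left lie above 0 and most called genes to its right below 0.

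Other structural genes of the cuticle rose with the collagens. Of 34 cuticlins, insoluble cuticle proteins, 11 rose (32.4%, beside 10.6% of all genes) and the others were not called, with a median log2 fold change of 0.70. The gene *cut-2* was at 0.862, 0.420 and 0.382 CPM in F0 control and at 2.55, 3.50 and 3.22 CPM in F1 control (5.54-fold, adjusted p = 0.00024). Among 11 *abu* genes, which encode glutamine- and asparagine-rich proteins, 10 rose (90.9%) with a median of 2.06. Under each alternative run 10 of them were called. The gene *abu-14* was at 6.90, 5.63 and 4.94 CPM in F0 control and at 34, 38.3 and 32 CPM in F1 control. Its groups were far apart (log2 fold change 2.58, SE 0.28, adjusted p = 3.37e-07). Near-identical members of this family may share reads. The cuticlin count was 7 with the ribosomal RNA share as a covariate or without F1 control replicate 3.

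Among genes needed for moulting the calls were rises with 1 exception. Of 28 genes 12 rose (42.9%, beside 10.6% of all genes), 1 fell (3.57%, beside 9.21%) and 15 were not called, with a median log2 fold change of 0.42. The gene *mlt-10*, expressed in the hypodermis at each moult, was at 6.17, 5.16 and 4.69 CPM in F0 control and at 16, 19.4 and 15.6 CPM in F1 control. The rise was 3.18-fold (log2 fold change 1.67, SE 0.20, adjusted p = 5.4e-07), with a wide gap between the groups. Astacin proteases help detach the old cuticle: *nas-36* rose 3.35-fold, from between 2.24 and 2.53 CPM to between 6.82 and 9.72 CPM (adjusted p = 5.69e-07). Another, *nas-37*, was at 11.9, 12 and 11.2 CPM in F0 control and 13.2, 13.3 and 13.5 CPM in F1 control and was not called (adjusted p = 0.182). The gene *nhr-23*, encoding a nuclear receptor at the head of the moulting programme, was the member that fell, from 54.9, 54 and 50.2 CPM to 46.5, 39.0 and 41.9 CPM. This fall was small (log2 fold change −0.32, SE 0.10, adjusted p = 0.0249) and its call was lost with upper quartile scaling, with the ribosomal RNA share as a covariate and without any 1 of F0 control replicates 1 and 2 or F1 control replicates 2 and 3. The matrix gene *noah-1* was at 20.8, 11.7 and 9.61 CPM in F0 control and 22.1, 24.8 and 20.1 CPM in F1 control and was not called (adjusted p = 0.0739), but was called without F0 control replicate 1, its highest F0 library.

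Hedgehog-related genes of *C. elegans* encode secreted proteins and patched-like transporters with roles in moulting. Of 74 tested 35 rose (47.3%, beside 10.6% of all genes) and 5 fell (6.76%, beside 9.21%), with a median log2 fold change of 0.92. The gene *wrt-4*, of the warthog group, was at 0.808, 0.817 and 0.682 CPM in F0 control and at 14.5, 12.4 and 10.6 CPM in F1 control. The groups were far apart (log2 fold change 4.02, SE 0.48, adjusted p = 1.38e-06). The ground-like gene *grl-16* was at 3.85, 2.83 and 2.89 CPM in F0 control and 20.2, 22.8 and 26.5 CPM in F1 control (adjusted p = 1.73e-07). Among the 5 members that fell was the abundant patched gene *ptc-1*, required in the germ line. It was at 775, 771 and 795 CPM in F0 control and 535, 564 and 625 CPM in F1 control, a log2 fold change of −0.44 (SE 0.09, adjusted p = 0.000577).

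Heterochronic genes set the order of larval stages, and 5 of 9 changed. Of the 9, 2 rose (22.2%, beside 10.6% of all genes) and 3 fell (33.3%, beside 9.21%). The gene *lin-42*, a homologue of the clock gene period whose transcript oscillates with the moulting cycle, was at 5.74, 3.83 and 5.05 CPM in F0 control and at 9.04, 9.87 and 10.7 CPM in F1 control. It rose 2.03-fold (log2 fold change 1.02, SE 0.16, adjusted p = 2.22e-05). The gene *lin-29*, encoding the zinc finger factor of the larval to adult switch, rose 1.49-fold to between 6.80 and 7.24 CPM (adjusted p = 0.00892), a call lost without F0 control replicate 3. The gene *lin-41*, encoding a translational regulator that also acts in oocytes, was at 475, 431 and 446 CPM in F0 control and 273, 298 and 343 CPM in F1 control. All F1 libraries lay below those of F0 (log2 fold change −0.56, SE 0.12, adjusted p = 0.00122), as they did for *lin-66* (−0.64) and *hbl-1* (−0.71), although *hbl-1* lost its call without F0 control replicate 1 or F1 control replicate 1 or 2.

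Oocyte and eggshell transcripts were slightly lower in F1 control. Of 33 genes 15 fell (45.5%, beside 9.21% of all genes) and 18 were not called, with a median log2 fold change of −0.29. For 29 of the 33 all F1 libraries lay below those of F0. The list was abundant on average. Among all 2248 genes at a mean of at least 100 CPM, 491 fell, with a median of −0.14. For 1141 of the 2248 all F1 libraries lay below those of F0. The chitin synthase gene *chs-1*, which builds the eggshell, was at 469, 423 and 452 CPM in F0 control and at 349, 309 and 344 CPM in F1 control. It fell 1.34-fold (log2 fold change −0.42, SE 0.08, adjusted p = 0.000245) under all alternatives run. The yolk receptor gene *rme-2* was at 722, 703 and 648 CPM in F0 control and 571, 576 and 547 CPM in F1 control (log2 fold change −0.29, SE 0.09, adjusted p = 0.0215). Oocyte maturation regulator *oma-1* fell by 0.22 and the Notch receptor *glp-1*, of the germline stem cells, fell by 0.22 on the log2 scale (adjusted p = 0.0309 and 0.0496). With upper quartile scaling, with the ribosomal RNA share as a covariate, and without F0 control replicate 1 or 2 or F1 control replicate 2 or 3, none of *rme-2*, *oma-1* and *glp-1* was called, and DESeq2 did not call *glp-1*. The number of falls was 3 with upper quartile scaling, 1 with the ribosomal RNA share as a covariate, and 4, 7, 8, 3 and 8 without F0 control replicates 1 and 2 and F1 control replicates 1, 2 and 3. In whole animals, fewer germ cells and less RNA per cell cannot be told apart.

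Other germline lists shifted by small amounts, near the median of −0.14 over the 2248 genes of at least 100 CPM, of which 491 fell. Of 30 replication and cell cycle genes 10 fell (median log2 fold change −0.18), of 21 germ granule and small RNA genes 8 fell (−0.19) and of 30 meiosis genes 4 fell (−0.16); no member of the 3 lists was called higher. The germ granule gene *pgl-1* was at 417, 444 and 435 CPM in F0 control and 345, 345 and 348 CPM in F1 control (1.25-fold, adjusted p = 0.00737). *mcm-3*, of the replicative helicase, went from 232, 228 and 215 CPM to 193, 182 and 191 CPM (adjusted p = 0.00947). Both genes showed a gap between groups, but with the ribosomal RNA share as a covariate neither was called, and the lists of replication, germ granule and meiosis genes had 0, 1 and 1 falls. With upper quartile scaling they had 2, 2 and 1. Without F0 control replicates 1, 2 and 3 the falls were 2, 7 and 6 for replication, 6, 3 and 7 for germ granule and 3, 2 and 2 for meiosis genes. Without F1 control replicates 1, 2 and 3 they were 7, 2 and 5, then 6, 5 and 4, then 3, 1 and 2.

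Sperm transcripts did not fall with those of oocytes. The 29 major sperm protein genes tested, which encode the sperm cytoskeleton, all had positive log2 fold changes with a median of 0.18, but 1 was called, *msp-74*, which was at 0.269, 0.584 and 0.30 CPM in F0 control and 1.3, 1.32 and 1.15 CPM in F1 control (adjusted p = 0.000475). Its level is low and its sequence near-identical to other members, so the share of reads is uncertain. With the 4 groups of F0 and F1 alone in the fit 10 of the 29 were called, and with the 6 control libraries alone 3. Of 53 other sperm genes 8 rose (15.1%, beside 10.6% of all genes) and 1 fell, with a median of 0.17. The spermatogenesis gene *spe-51* was at 0.701, 0.771 and 0.819 CPM in F0 control and 1.28, 1.21 and 1.45 CPM in F1 control (1.72-fold, adjusted p = 0.00526). With the ribosomal RNA share as a covariate 1 of the 53 was called, and between 2 and 6 rose without any 1 library. With the 4 groups of F0 and F1 alone in the fit 15 rose, and with upper quartile scaling 12.

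All 6 vitellogenin genes fell (beside 9.21% of all genes), with a median log2 fold change of −0.58. In each the 3 F1 libraries lay below the 3 of F0, beside 23.3% of all genes. The gene *vit-1* (chromosome X, 7727889 to 7733168) was at 1742, 1787 and 1742 CPM in F0 control and at 966, 863 and 958 CPM in F1 control. That is a 1.89-fold fall (log2 fold change −0.92, SE 0.09, adjusted p = 1.02e-07). *vit-3* and *vit-4*, which lie side by side on chromosome X and may share reads, fell 1.71-fold and 1.61-fold (adjusted p = 3.89e-07 and 2.86e-07). The abundant *vit-2* was at 10929.7, 9073 and 8197 CPM in F0 control and 6200.4, 7288 and 7107 CPM in F1 control (1.37-fold, adjusted p = 0.00459). *vit-2* lost its call without F0 control replicate 1, its highest library. The call was also lost with the 4 groups of F0 and F1 alone in the fit (adjusted p = 0.055). The same held with the 6 control libraries alone, both without and with a replicate block (adjusted p = 0.0582 and 0.0839). All 6 falls were called with the ribosomal RNA share as a covariate, and between 4 and 6 under the other alternatives.

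Several fatty acid elongases and desaturases fell. Of 19 elongases, desaturases and related genes 8 fell (42.1%, beside 9.21% of all genes), 2 rose and 9 were not called, with a median log2 fold change of −0.09. The elongase gene *elo-2*, which extends palmitate, was at 102, 134 and 150.4 CPM in F0 control and at 60.5, 46.2 and 46.6 CPM in F1 control. It fell 2.52-fold (log2 fold change −1.33, SE 0.20, adjusted p = 2.98e-05) with no overlap. *elo-5* and *elo-6*, which make branched-chain fatty acids and lie near each other on chromosome IV, fell 1.82-fold and 2.29-fold (adjusted p = 0.000719 and 0.000597). Of 22 acyl-CoA synthetases, which activate fatty acids, 5 fell (22.7%) and 1 rose, with a median of 0.05. *acs-1*, which acts in branched-chain fatty acid metabolism, was at 98.4, 105 and 116 CPM in F0 control and 57.5, 46.4 and 52.2 CPM in F1 control, 2.04-fold lower (adjusted p = 1.52e-07). *acs-20*, which helps form the cuticle barrier, was the member that rose, from between 6.33 and 7.49 CPM to between 11.7 and 15 CPM (1.90-fold, adjusted p = 2.32e-05). Beside 9.21% lower and 10.6% higher among all genes, 3 of 15 peroxisomal beta-oxidation genes fell (20%) and 1 rose (6.67%). Of these *acox-1.5* was at 16, 16.9 and 18.4 CPM in F0 control and 12, 12.4 and 11.3 CPM in F1 control (adjusted p = 0.00109).

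The largest falls lay outside these lists or in small groups of intestinal genes. *bath-25*, of the MATH and BTB family, was at 8.27, 11.6 and 10.2 CPM in F0 control and at 2.11, 1.02 and 1.23 CPM in F1 control. It fell 6.70-fold (log2 fold change −2.74, SE 0.44, adjusted p = 6.53e-05). Of the 63 MATH and BTB genes tested 5 fell (7.94%, beside 9.21% of all genes) and 2 rose (3.17%, beside 10.6%). The intestinal haem transporter gene *hrg-4* was at 2.34, 2.92 and 3.90 CPM in F0 control and 0.904, 0.716 and 0.587 CPM in F1 control (4.09-fold, adjusted p = 7.3e-07). It is 1 of 4 genes of iron, haem and metal handling that fell among 14 (28.6%). That count was 1 without F0 control replicate 2 or 3 or F1 control replicate 2 and 2 without F1 control replicate 1. In the same list *cdf-2*, a zinc transporter gene, rose (log2 fold change 0.68, adjusted p = 0.00935). Ferritin gene *ftn-1* was at 2.86, 3.76 and 2.67 CPM in F0 control and 4.71, 5.65 and 4.64 CPM in F1 control, a gap that did not pass the test (adjusted p = 0.123) but did with the 4 groups of F0 and F1 alone (adjusted p = 0.0132) or the 6 control libraries alone in the fit (adjusted p = 0.00925). A transcript that encodes no known protein, *linc-108*, fell 3.98-fold, from between 3.14 and 3.56 CPM to between 0.742 and 0.980 CPM (adjusted p = 6.05e-06).

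Detoxification families moved in both directions, given beside 10.6% higher and 9.21% lower among all genes. Of 68 cytochrome P450 genes 10 fell (14.7%) and 5 rose (7.35%), of 46 glutathione S-transferases 7 fell (15.2%) and 1 rose (2.17%), and of 63 UDP-glucuronosyltransferases 9 fell (14.3%) and 12 rose (19%). *cyp-25A2* was at 15.3, 15.9 and 19.4 CPM in F0 control and at 6.82, 5.24 and 6.57 CPM in F1 control (2.70-fold, adjusted p = 2.85e-07). Its neighbour *cyp-25A1* fell 2.68-fold (adjusted p = 0.000491), and the near-identical pair may share reads. In contrast, *ugt-26* was at 55.4, 50.4 and 39.1 CPM in F0 control and 151, 152 and 126.2 CPM in F1 control, 2.96-fold higher (adjusted p = 0.000262). With the ribosomal RNA share as a covariate 5 of the UDP-glucuronosyltransferases rose. Falls of cytochrome P450 genes numbered 4 and 6 without F1 control replicates 2 and 3, and those of glutathione S-transferases 11 without F0 control replicate 1 and 4 without F0 control replicate 2 or 3 or F1 control replicate 2.

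The stress-induced heat shock genes *hsp-70* and *hsp-16.2* did not pass the test. *hsp-70*, which encodes a chaperone, was at 325, 224 and 302 CPM in F0 control and 132, 179.5 and 238 CPM in F1 control (adjusted p = 0.1). It was called lower with the ribosomal RNA share as a covariate (log2 fold change −1.01, adjusted p = 0.0186) and with the 4 groups of F0 and F1 alone in the fit (−0.59, adjusted p = 0.0407). *hsp-16.2* was at 415, 309 and 420.1 CPM in F0 control and 228, 284 and 366 CPM in F1 control (adjusted p = 0.328). In both genes the libraries of each group were spread widely, and the groups overlapped. Of the 25 heat shock genes 6 fell (24%, beside 9.21% of all genes), and without F1 control replicate 1 the falls numbered 3. The mean log2 CPM of the list was 6.48 to 6.57 in F0 control. Among all 2248 genes at a mean of at least 100 CPM, 491 fell. The falls of the heat shock list were led by the co-chaperone gene *dnj-13*, from 477, 479.8 and 517 CPM to 364, 310.3 and 353 CPM (1.43-fold, adjusted p = 3.04e-06). Of 14 insulin pathway outputs 2 fell (14.3%), *sod-3*, encoding a mitochondrial superoxide dismutase, 1.78-fold (adjusted p = 0.000207), and *pud-3*.

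Defence genes rose more often than they fell in controls, at shares above the 10.6% of all genes, although the lectins as a list had a median log2 fold change of −0.07. Of 158 C-type lectins 23 rose (14.6%) and 6 fell, of 91 lysozyme and antimicrobial genes 17 rose (18.7%) and 3 fell, and of 23 *pals* genes 4 rose (17.4%). *clec-4* was at 2.59, 3.36 and 3.41 CPM in F0 control and at 15.3, 12.4 and 12.5 CPM in F1 control (4.30-fold, adjusted p = 5.13e-09). The saposin-like gene *spp-13* rose 6.01-fold from between 1.1 and 1.32 CPM (adjusted p = 1.05e-07). The neighbours *pals-24* and *pals-23* on chromosome III rose 2.02-fold and 1.85-fold (adjusted p = 1.82e-05 and 2.9e-05). In the opposite direction the epidermal peptide gene *nlp-27* was at 169, 208 and 249.6 CPM in F0 control and 92.2, 109 and 124 CPM in F1 control (adjusted p = 0.00308). With the ribosomal RNA share as a covariate 11 lectins and 14 antimicrobial genes rose, and *nlp-27* was not called. Leaving out F0 control replicate 1 or 3 or F1 control replicate 1 or 2 left 13 to 15 rises among the lectins, and without F0 control replicate 3 or F1 control replicate 2 the *pals* genes had 2 rises. In the exposed step 8 lectins rose and 10 fell, and 6 lysozyme and antimicrobial genes rose and 16 fell. Of 262 F-box genes 33 rose (12.6%) and 8 fell (3.05%). By subfamily, 31 of the 129 *fbxa* genes rose and 1 of the 96 *fbxb* genes, a division given with no test. F-box rises numbered 13 with the ribosomal RNA share as a covariate and 20, 21 and 21 without F0 control replicate 2, F0 control replicate 3 and F1 control replicate 2. Of 200 nuclear hormone receptor genes, which encode ligand-regulated transcription factors, 23 rose (11.5%) and 10 fell (5%).

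Markers of other cells and animals had few calls, though some lists shifted as a whole. Of 14 male markers 9 passed the filter on low counts and 1 was called, the channel gene *asic-2*, at 5.04, 2.45 and 3.22 CPM in F0 control and 1.02, 1.66 and 2.63 CPM in F1 control (adjusted p = 0.0173), with groups that overlapped. Its call was lost with the 12 or the 6 control libraries alone in the fit, and without F0 control replicate 1 or F1 control replicate 1 or 2. The male gene *srj-54* had no count in any of the 6 libraries. Of 11 early zygotic genes, expressed in embryos, 9 passed the filter and 1 was called, *ref-1*, which fell by 0.37 on the log2 scale (adjusted p = 0.0251) and lost its call without F0 control replicate 2 or any 1 F1 control library. The 9 genes had a median of −0.37, and for 5 of them all F1 libraries lay below those of F0, beside 23.3% of all genes. The sum over the early zygotic list was 15.4 to 16.6 CPM in F0 control and 11.3 to 13.2 CPM in F1 control, so these embryo markers moved with the oocyte and vitellogenin lists, and their part in those results was not tested. The endoderm gene *end-1* lay between 0.510 and 1.03 CPM in the 6 libraries. Of 14 body muscle genes 1 fell, but all 14 had negative log2 fold changes with a median of −0.25. For 9 of them all F1 libraries lay below those of F0. Their sum was 9695 to 9890 CPM in F0 control and 7738 to 9109 CPM in F1 control, without overlap. This list was abundant on average. Among all 2248 genes at a mean of at least 100 CPM, 1141 had all F1 libraries below those of F0, with a median of −0.14. Of 10 vulva and uterus genes 1 rose. Of 119 neuropeptide genes 21 rose (17.6%, beside 10.6% of all genes) with none lower, in a list that leaves out *nlp-27*, which fell. Among the rises was *flp-34*, at 4.07, 4.30 and 4.20 CPM in F0 control and 6.84, 7.27 and 6.35 CPM in F1 control (adjusted p = 0.00092). The rises numbered 8 with the ribosomal RNA share as a covariate, 9 without F0 control replicate 1 and 11 without F1 control replicate 1.

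Core cell machinery had few calls. Of 77 ribosomal protein genes 1 was called, *rpl-41.2*, higher by 0.36 on the log2 scale (adjusted p = 0.0363), a call lost with the 12 control libraries alone, with no filter, and without F0 control replicate 1 or 3 or F1 control replicate 1 or 3, and the list had a median of −0.06, against 0.44 in the exposed step. Of 31 proteasome subunits edgeR called 0 and DESeq2 0, with 3 at an unadjusted p under 0.05, and of 42 histone genes they called 0 and 1, with 9 at an unadjusted p under 0.05.

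A second pair of groups made the same step under radiation, F1 exposed against F0 exposed, and shares no library with the controls. In that step 1044 genes rose (5.92%) and 862 fell (4.89%). Of the genes called in controls, 829 rose and 388 fell in both steps and 5 were called in opposite directions. The shared calls were 34.8% of those in controls and 63.9% of those in exposed animals, and 2969 control calls (85%) had the same sign. Over all 17627 genes the log2 fold changes of the 2 steps had a Pearson r of 0.755, a description across genes that are not independent. Shares of ribosomal RNA were 4.091% to 5.284% in F0 exposed and 3.509% to 5.118% in F1 exposed, so they overlapped in this step.

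**Figure D4:**
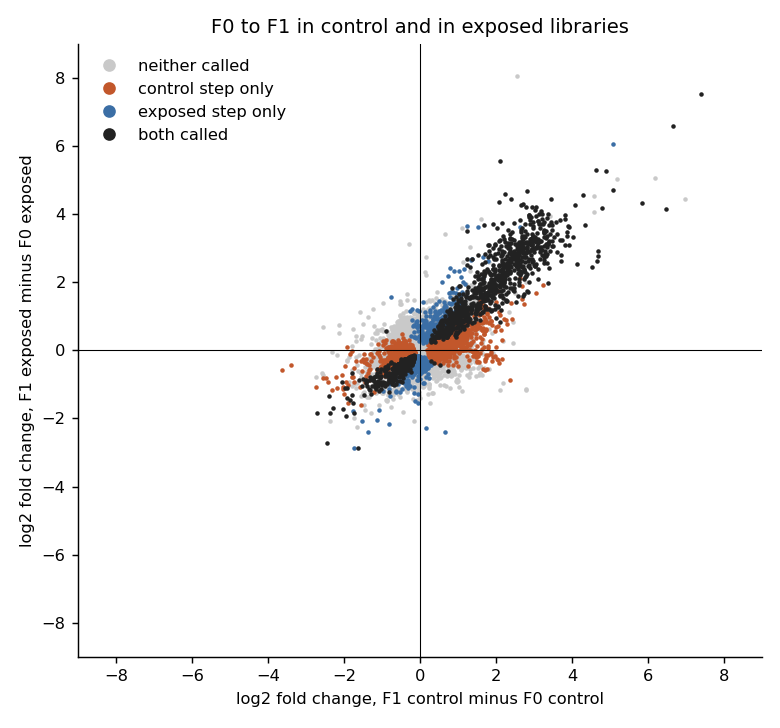
Log2 fold change of each of the 17627 genes tested from F0 to F1 in exposed libraries (y axis) against that in control libraries (x axis), coloured by which step was called. Genes called in both steps lie mostly in the upper right and lower left, with 829 higher and 388 lower in both.

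Most cuticle genes that rose in controls also rose in the exposed step. Of the 154 collagens 94 rose and 3 fell (median log2 fold change 2.36), and 87 rose in both steps. The 28 abundant collagens had 5 rises and 2 falls there with a median of −0.01, and their sums overlapped, at 14316 to 22122 CPM in F0 exposed and 15126 to 19872 CPM in F1 exposed. All 6 furrow collagens rose under exposure, with *dpy-7* at 2.46 on the log2 scale (adjusted p = 0.000616), and 10 *abu* genes rose in both steps. The hedgehog-related list had 38 rises and 1 fall, 31 of the rises shared, and the moulting list 17 rises, 11 shared. Germline lists moved less: 2 of 33 oocyte genes fell (median −0.08) and the replication genes had a median of −0.11. Vitellogenins again fell, 4 of 6 (median −0.38), with *vit-1* at −0.54 (adjusted p = 9.31e-05). A test of the difference between the steps called 10 genes by edgeR (0.0567%), with 2505 genes at an unadjusted p under 0.05, or 14.2%. No collagen was among those called by edgeR or by DESeq2, and 17 of the 154 (11%) had an unadjusted p under 0.05. Of the 77 ribosomal protein genes none was called by either tool and 25 (32.5%) had an unadjusted p under 0.05.

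**Figure D5:**
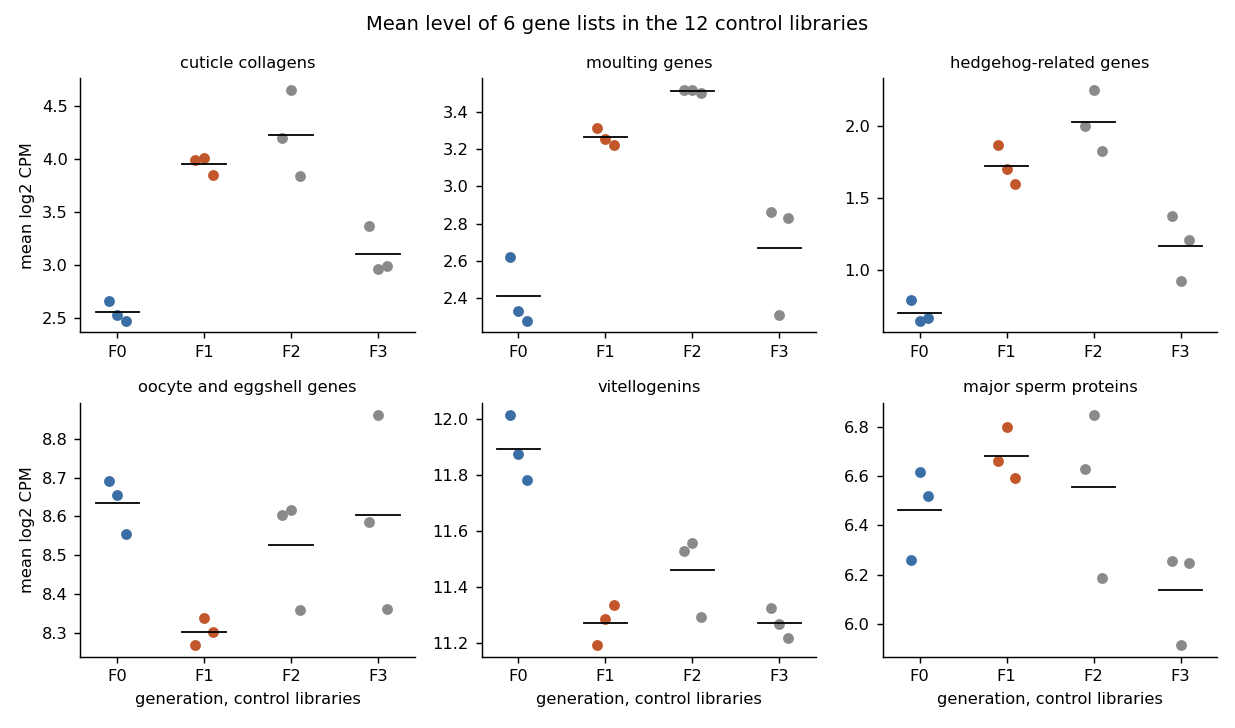
Mean log2 CPM (y axis) over the genes of 6 lists in each control library (points) of generations F0 to F3 (x axis), with the mean of each generation as a line. Collagens lie between 2.48 and 2.66 in F0, between 3.86 and 4.01 in F1, between 3.85 and 4.66 in F2 and between 2.97 and 3.38 in F3.

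Later control generations place the F0 and F1 levels in a wider range, given as a description with no test. The mean log2 CPM of the collagens was highest in F2 controls, overlapping F1, and that of F3 controls lay between F0 and F1. Hedgehog-related genes followed the same order, at 0.65 to 0.79 in F0, 1.6 to 1.87 in F1, 1.82 to 2.25 in F2 and 0.92 to 1.37 in F3 controls. Moulting genes were at 2.28 to 2.62, 3.22 to 3.31, 3.50 to 3.52 and 2.31 to 2.86, so F3 overlapped F0. In the F1 recovery libraries, also unirradiated, collagens were at 3.79 to 4.03, overlapping F1 control. The gene *lon-3* followed, with a mean of 23.5 CPM in F2 and 4.74 CPM in F3 controls. In *lin-42* F2 controls were again highest, with a mean of 30.6 CPM. Its mean of 10.5 CPM in F3 controls lay within the range of the F1 control libraries, not between F0 and F1. Vitellogenins did not follow the order of the collagens. Their mean log2 CPM was 11.78 to 12.02 in F0 and stayed below that in each later control generation, at 11.19 to 11.34 in F1, 11.30 to 11.56 in F2 and 11.22 to 11.33 in F3. Oocyte genes were at 8.55 to 8.69 in F0, 8.27 to 8.34 in F1 and, with wide spread, 8.36 to 8.62 in F2 and 8.36 to 8.86 in F3, so the F1 controls were the lowest of the 4 generations.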

How the data were processed

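Whole-animal RNA was extracted with Direct-zol reagent and RNeasy columns and sequenced from strand-specific libraries as paired 150-base reads, per the labels' protocols. The deposited values are raw gene counts made by the authors. The submitters' processing notes name STAR and DESeq2 1.22.2, with no role. The build, annotation, counter and strand setting behind the counts were not given in the sources used here. Gene symbols and positions came from the WBcel235 annotation by identifier.

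All 33 libraries entered 1 fit of edgeR 4.0.16 in R 4.3.3 with TMM scaling, filterByExpr on the 11 groups, 1 coefficient per group and robust quasi-likelihood F-tests, with 22 residual degrees of freedom and a common biological coefficient of variation of 0.119. The spread is thus pooled over 11 groups. P-values were adjusted over 17627 genes. SEs were calculated back from the F statistic. CPM and log2 CPM (prior count 2) were computed from the counts. Total counts of 28.13 to 43.43 M in the 6 libraries limit precision for genes near 1 CPM. The fit was tested on simulated data.

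The members, the 40 gene lists, the tests and the alternatives were chosen with earlier results of these data known. Named genes passed the test, had groups without overlap and a mean of 1 CPM or more on the higher side, and were among the 15 largest changes each way or the 4 smallest p-values each way in a list, beside a fixed set. The text names fewer, a choice made after the values were seen. Lists have no test of their own. Alternatives were other scalings, no filter, DESeq2 1.42.0, other libraries in the fit, a replicate block, each library left out and, chosen after seeing the data, the ribosomal RNA share as a covariate.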

Additional observations from a re-analysis of the deposited data

Results flagged for a closer look

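In 10 genes the step from F0 to F1 differed between exposed and control libraries by edgeR's test of the difference, the log2 change in exposed minus that in control libraries. All but *nhr-6* rose in controls. In the exposed step *clec-4* rose less, *W05E10.1* fell (log2 fold change −0.61, edgeR adjusted p = 0.0155) and the others of these were not called. *nhr-6* fell in controls and rose in the exposed step, so it and *W05E10.1* were called in opposite directions. The differences were −1.26 for the C-type lectin gene *clec-4*, −1.33 for *W05E10.1*, −1.05 for the UDP-glucuronosyltransferase gene *ugt-48*, −0.95 for the F-box gene *fbxa-72*, −0.88 for the chemoreceptor gene *srh-237*, −0.79 for *F21C10.9*, −0.76 for the amino acid transporter gene *aat-2*, −0.67 for *T05E12.6* and −0.60 for *pmp-5*, of the peroxisomal transporter family. The nuclear receptor gene *nhr-6* had a value of 1.48. Mean levels of *clec-4* were 3.12 and 13.4 CPM in F0 and F1 control and 4.33 and 7.81 CPM in F0 and F1 exposed. Those of *nhr-6* were 3.86 and 2.05 CPM in control and 2.60 and 3.85 CPM in exposed libraries. Adjusted p-values ran from 0.00476 for *T05E12.6* to 0.0490 for *F21C10.9*. *T05E12.6* and *srh-237* kept their calls under each alternative run, and each of the other 8 lost its call under 1 or more of them. Of the 10 genes 8 lie on chromosome V, which holds 3649 of the 17627 genes tested; the distribution was noticed after the values were seen and was not tested.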

How the results depend on the processing

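No named gene that was called from F0 to F1 control changed direction under any alternative. Direction was not compared for named genes that were not called. Of the 206 named genes, between 150 and 203 kept their side of the threshold. The 3494 genes called from F0 to F1 control became 2085 (813 lower) with the 12 control libraries alone and 1519 (952 higher, 567 lower) with the ribosomal RNA share as a covariate. Lower calls were 647 with upper quartile scaling and 1021 with no filter, where 29235 genes were tested. Leaving out 1 library gave 2089 to 2689 calls, 1336 to 1605 higher and 682 to 1140 lower; the lowest, 2089, was without F1 control replicate 2, and lower calls were 981 and 1012 without F0 control replicates 1 and 2. In the exposed step lower calls were 544 with upper quartile scaling and 1430 with the ribosomal RNA covariate; leaving out 1 library gave 1241 to 1708 calls, 838 to 947 higher and 403 to 761 lower. The 10 calls of the difference became 77 with the 4 groups alone, 53 with DESeq2 and 2 with the covariate, and 2 to 16 without 1 library. The causes were not tested. Same-numbered F0 and F1 control libraries had deviations correlated at −0.0965, 0.0866 and 0.0174, and the other pairs at −0.11 to 0.0904. Deviations from a mean of 3 libraries are not independent, so these values cannot decide whether the numbers pair the libraries. A replicate block gave 3411 calls in the fit of all libraries and 3309, against 4059 without it, in that of the 6 controls. Depth limits genes near 1 CPM.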

Other observations

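Gene families that were not lists of their own also moved from F0 to F1 control. They were chosen after their values were seen and are given with no test. Of all genes 10.6% were called higher and 9.21% lower in controls, and 5.92% and 4.89% in the exposed step. Of 32 astacin protease genes (*nas*) 17 were called higher and 1 lower, with a median log2 fold change of 1.12. In the exposed step 15 were called higher. The *nas* family includes *nas-36* and *nas-37*, given above with the moulting genes. Of 16 *idpp* genes 11 were called higher in controls (median 1.83), and 11 higher and 2 lower in the exposed step. The member *idpp-4* was at 0.216, 0.210 and 0.164 CPM in F0 control and 2.69, 3.01 and 2.24 CPM in F1 control (edgeR adjusted p = 1.13e-07). Of 57 transthyretin-related genes (*ttr*) 13 were called higher and none lower in controls, against 2 higher and 8 lower in the exposed step. The gene *gmd-2* had 0.0808, 0 and 0 CPM in F0 control and 2.85, 3.81 and 2.15 CPM in F1 control.

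Small nucleolar RNA genes, which guide modification of ribosomal RNA, had 22 members called higher and 5 lower of 112 in controls, beside 10.6% and 9.21% of all genes. Their median log2 fold change was 1.01. In the exposed step 1 was called higher and 3 lower (median −0.25). Their number moves beside the ribosomal RNA share, which was higher in F1 control and overlapped between the exposed groups; its part was not tested. Of 14 genes on mitochondrial DNA 6 were called higher in F1 control (42.9%, beside 10.6% of all genes). Among them *COX3*, a cytochrome oxidase subunit gene, was at 2680, 2491 and 3115 CPM in F0 control and 3760, 2833 and 4294 CPM in F1 control, with groups that overlapped (edgeR adjusted p = 0.0295). In the exposed step the smallest edgeR adjusted p among the 14 genes was 0.38, and *COX3* had a log2 fold change of −0.13. Mitochondrial genes took 1.066% to 1.466% of counts in F0 control and 1.3% to 2.133% in F1 control, so the groups overlapped.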
